A study of Mus musculus with 9 samples.

Results

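The 43 DNA replication and S-phase genes described here were chosen by name, as genes whose products copy DNA, supply its building blocks, package it again or switch these genes on. The choice was made with earlier results of these data known, which limits how their counts can be read against all genes. All 43 were found among the 13539 genes measured, and none was left out for a low value. Before S phase, Cdc6 and Cdt1 load the ring-shaped Mcm helicase onto origins of replication. The kinases Cdc7 and cyclin E-Cdk, together with Cdc45 and the Gins complex, then set that helicase in motion, and the polymerases follow with the Pcna clamp. Many of these genes are switched on by E2F transcription factors, and they are low in the adult heart, where most cardiomyocytes have left the cell cycle.

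Heart RNA of male mice aged 12 weeks, on the C57BL/6JOlaHsd background, was sequenced in 9 libraries that form 3 groups of 3. The groups were wild-type mice given isoproterenol, OMA1 KO (knockout) mice left without treatment, and OMA1 KO mice given isoproterenol. Isoproterenol, a β-adrenergic agonist that raises heart rate and contractility, came from implanted minipumps at 10 mg/kg per day for 7 days. OMA1 is a protease of the inner mitochondrial membrane, and the labels do not say how its gene was disrupted or whether the knockout is limited to certain cells. Untreated mice are labelled only as non-treated, so drug and pump cannot be told apart. Wild-type hearts without treatment were not analysed here, so an interaction of genotype and treatment could not be tested. The labels name no animals, so p-values set group differences only against the spread among these samples, and that spread may be technical.

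Values are deposited normalized counts, in which 1 read counted for 0.0811 to 0.138, and the libraries held 6933879 to 12187701 recovered reads. The transcript of Oma1 itself stood at 17.7 to 22.01 in treated wild-type libraries and at 5.73 to 9.10 in the 6 knockout libraries, which still held 48 to 77 reads of it. Transcripts of the mitochondrial genome took 33.9% to 37.3% of the signal in untreated knockout and treated wild-type libraries and 38.2%, 42.5% and 39.6% in treated knockout libraries. All 8 cardiomyocyte markers were present, with a summed level of 54081 to 57148 in untreated knockout, 44520 to 52982 in treated wild-type and 44917 to 48767 in treated knockout libraries. The summed level of the 5 atrial markers was 1129 to 2526 in untreated knockout libraries and 87.8 to 119 in treated knockout libraries. In treated wild-type replicates 1, 2 and 3 it was 53.5, 88.0 and 844. Bmp10, an atrial growth factor, was at 0 in all 6 treated libraries and at 17.8 to 42.9 in the untreated ones. The part of the heart that was sampled and the treatment therefore cannot be told apart in either comparison with the untreated hearts. Treated wild-type replicate 3 also enters the comparison of the treated groups, where the part of its atrial level was not tested.

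The members were low transcripts. A member had a median of 22 reads per library in untreated knockout hearts (range 0 to 230), 52 in treated wild-type hearts (5 to 341) and 62 in treated knockout hearts (8 to 415). In untreated hearts 8 members had fewer than 10 reads in every library. Per kilobase of the longest coding transcript, Pcna had the highest level in each group, at 17.4 in untreated knockout hearts and 21.6 in both treated groups. In treated knockout hearts it was followed by Top2a (level per kilobase 5.95), Tk1 (5.74), Dnmt1 (5.10) and Rrm1 (5.10). In untreated knockout hearts the level of Top2a per kilobase was 0.534, below Rrm1 at 3.71 and Rfc4 at 3.53.

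**Figure D1:**
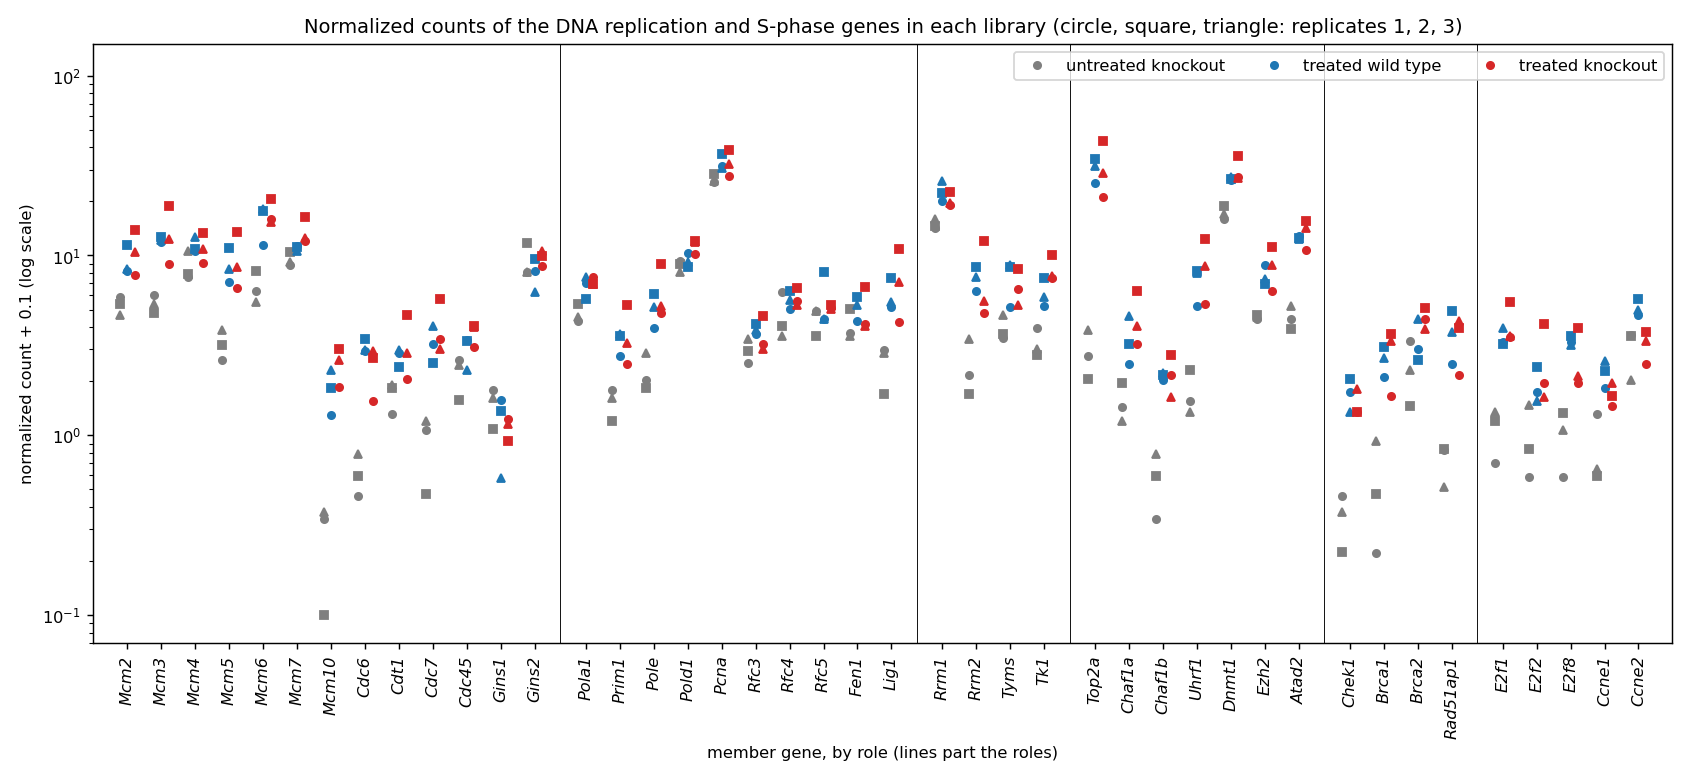
Normalized counts (vertical axis, log scale, with 0.1 added so that a value of 0 can be drawn) of the 43 members, ordered by role, in each of the 9 libraries. Grey points are untreated knockout, blue treated wild-type and red treated knockout hearts, and circles, squares and triangles are replicates 1, 2 and 3. For Top2a the 3 untreated libraries sit between 1.97 and 3.73 and the 6 treated libraries between 21.1 and 43.3, while for Gins1 and Gins2 the groups overlap.

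The comparison of the knockout groups asked what isoproterenol from a minipump changed in hearts labelled OMA1 KO. Of the 43 members 34 rose and 0 fell, where 41.3% of all genes passed the test, 21% as higher and 20.3% as lower. The test was limma on log2(normalized count + 1), with Benjamini-Hochberg adjustment over all 13539 genes and a threshold of 0.05. The median log2 difference of the members was 0.87 (range -0.25 to 3.05), beside 0.01 over all genes. Above 0 lay 42 of 43 members and 6952 of all 13539 genes. For 35 members every treated knockout library stood above every untreated one, which held for 27.8% of all genes. Since 1 is added before the log, these differences understate the change of low genes. As a ratio of group means the median was 2.49-fold, beside 1.01-fold over all genes. At least 2-fold higher were 24 members and 711 of all 13539 genes.

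The summed level of the 43 members was 179, 183 and 184 in the untreated knockout libraries. It was 302, 358 and 339 in treated wild-type libraries and 288, 442 and 335 in treated knockout libraries. Every treated library lay above every untreated one, with group values of 182 ± 2.98 (SD, n = 3), 333 ± 28.5 and 355 ± 79.1 in that order. Replicate 2 of the treated knockout hearts was the highest of its group for 36 members and the highest of all 9 libraries for 32. It also had the highest mitochondrial share (42.5%) and the highest summed level of 5 erythroid markers (6284, where the other libraries ran from 1388 to 6038), and their part in these values was not tested. Without this library 27 members rose between the knockout groups, with a median of 0.66. These are whole-tissue data, in which fewer cells of a type and less RNA per cell cannot be told apart.

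**Figure D2:**
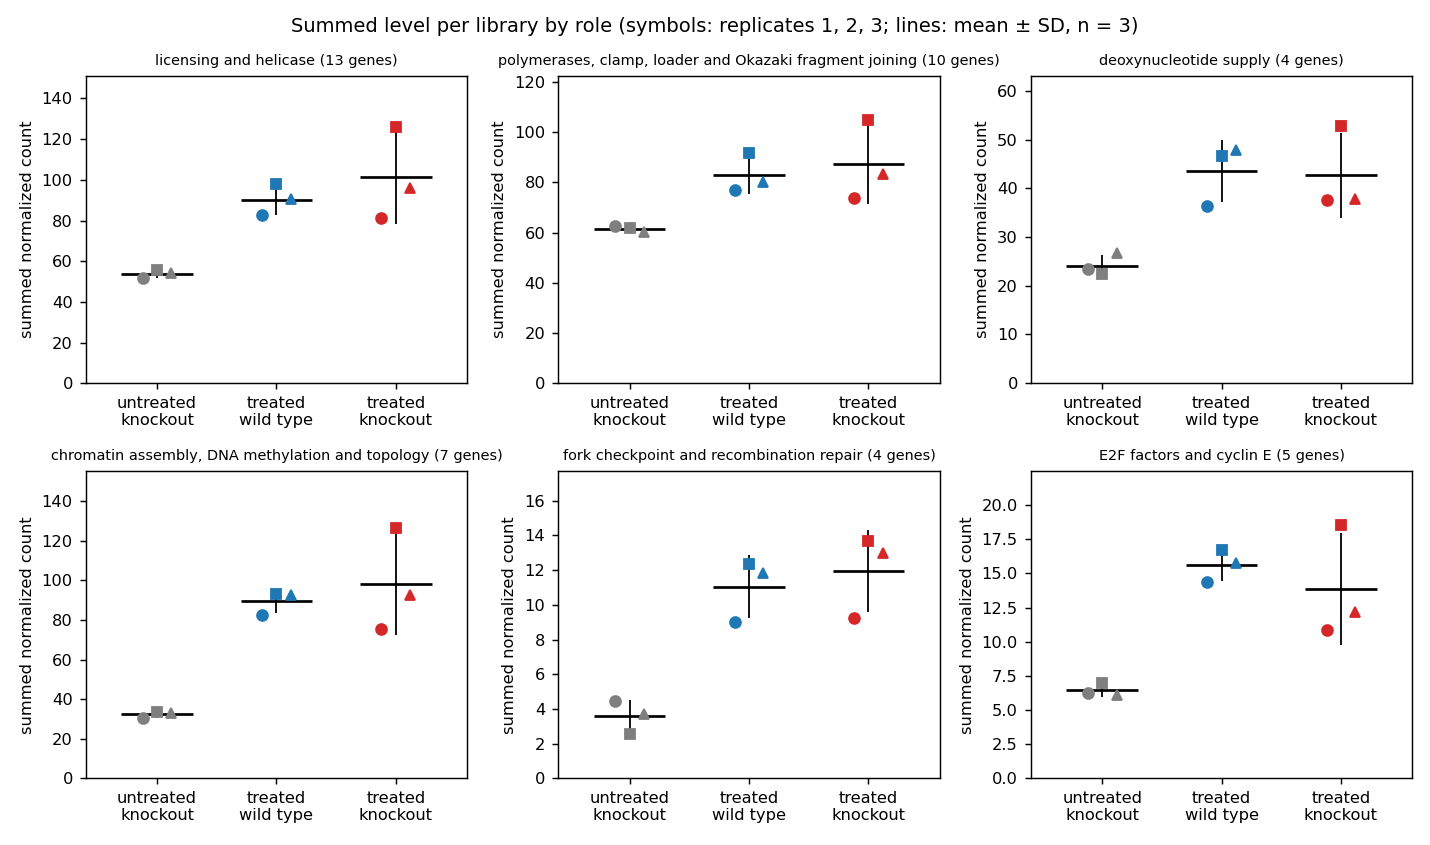
Summed normalized count (vertical axis, from 0) of the members of each of the 6 roles in each library, by group; circles, squares and triangles are replicates 1, 2 and 3, the horizontal line is the mean and the vertical line the SD (n = 3). In the chromatin panel the untreated libraries lie between 30.3 and 33.6 and the treated ones between 75.6 and 127, while in the polymerase panel they lie between 60.2 and 62.4 and between 73.9 and 105.

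Among the 13 licensing and helicase genes 10 rose and 0 fell between the knockout groups, with a median log2 difference of 0.87. Mcm6, a subunit of the helicase ring (ENSMUSG00000026355, chr1:128331590-128359664 on GRCm38), stood at 6.28, 8.12 and 5.39 in untreated knockout replicates 1, 2 and 3. It stood at 11.3, 17.5 and 18.0 in treated wild-type and at 15.9, 20.5 and 15.3 in treated knockout hearts. No treated library reached down to the untreated ones, and the mean was 2.61-fold higher in treated than in untreated knockout hearts (log2 difference 1.27 ± 0.18, SE; adjusted p = 8.2e-05 by limma). The other subunits were uneven: Mcm5, Mcm3, Mcm2 and Mcm7 rose by log2 differences of 1.30, 1.13, 0.87 and 0.48. Mcm4 did not pass (0.32 ± 0.15, adjusted p = 0.11 by limma), although it did without treated knockout replicate 1, without untreated replicate 3 and with scaling outside the mitochondrial genome. It read 7.49, 7.75 and 10.5 in untreated knockout, 10.5, 10.7 and 12.6 in treated wild-type and 9.02, 13.2 and 10.7 in treated knockout hearts, so that the knockout groups overlapped.

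Mcm10, a scaffold of the starting fork, had 2, 0 and 2 reads in the untreated knockout libraries, 13, 15 and 23 in treated wild-type and 17, 28 and 31 in treated knockout libraries. Its transcript was barely detected without treatment, and the log2 difference between the knockout groups was 1.53 ± 0.21 (adjusted p = 8.4e-05 by limma). Cdc7, a kinase that fires origins, stood at 0.966, 0.369 and 1.11 in untreated and at 3.32, 5.63 and 2.92 in treated knockout hearts (4.86-fold; log2 difference 1.44 ± 0.23, adjusted p = 0.00028 by limma). Its values in treated wild-type hearts, 3.12, 2.42 and 3.94, overlapped those of treated knockout hearts and lay above all untreated ones. The loading factors Cdc6 and Cdt1 rose by log2 differences of 1.101 and 0.63, and Cdc45, the helicase cofactor, by 0.58. The calls of Cdt1 and Cdc45 were lost without treated knockout replicate 2 or 3 or untreated replicate 2, and that of Cdt1 also without untreated replicate 1.

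The 2 Gins subunits did not pass. Gins2 read 7.97, 11.6 and 8.01 in untreated knockout, 8.07, 9.45 and 6.15 in treated wild-type and 8.60, 9.80 and 10.5 in treated knockout hearts. All 3 groups overlapped, and the log2 difference between the knockout groups was 0.08 ± 0.16 (adjusted p = 0.73 by limma). Gins1 was the only member with a difference below 0 between these groups (-0.25 ± 0.23, adjusted p = 0.40 by limma), at values of 0.481 to 1.69 over the 9 libraries.

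Promoters of 37 of the 43 members were read from RefSeq sequences on GRCm38.p6, each from 250 bases before the gene's start to 50 after it. Mcm4, Gins1, Gins2, Pole, Atad2 and Ccne2 were not matched. The E2F words TTTCCCGC, TTTGGCGC, TTTCGCGC and TTTGCCGC were searched on both strands, and overlapping matches were counted separately. Some members, such as Dnmt1 and Lig1, had more than 1 promoter, and a gene was counted if any of its promoters held a word. At least 1 word was present in 15 of the 37 members (40.5%) and in 4.69% of the 9450 measured genes with a promoter. The share was 2.605% of all 27025 genes with a promoter, and 2.265% of all 32851 single promoters. The helicase subunits Mcm5 and Mcm6 and the loading factor Cdc6 are shown, as genes of the licensing role that rose and carry these words; each line holds the 200 bases just before the start, 5′ to 3′ on the gene's strand, with the matches in capitals. Positions are counted back from the RefSeq start, whose preceding base is -1. GENCODE M21, the source of gene positions here, starts Cdc6 earlier, at chr11:98907801, so the Cdc6 line lies inside that gene. Mcm5 (chr8:75109309-75109508, plus strand) has overlapping matches that begin at -153 and -149, Mcm6 (chr1:128359706-128359905, minus strand) has matches at -110, -106 and -47, and Cdc6 (chr11:98907951-98908150, plus strand) has a match at -138.
Mcm5: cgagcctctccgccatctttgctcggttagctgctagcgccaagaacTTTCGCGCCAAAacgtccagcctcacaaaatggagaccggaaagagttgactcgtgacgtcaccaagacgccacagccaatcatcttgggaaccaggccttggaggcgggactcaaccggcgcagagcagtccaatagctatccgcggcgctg
Mcm6: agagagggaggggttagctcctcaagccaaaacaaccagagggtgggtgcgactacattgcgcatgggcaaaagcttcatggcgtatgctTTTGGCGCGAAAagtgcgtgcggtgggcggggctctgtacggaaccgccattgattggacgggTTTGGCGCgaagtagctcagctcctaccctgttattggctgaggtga
Cdc6: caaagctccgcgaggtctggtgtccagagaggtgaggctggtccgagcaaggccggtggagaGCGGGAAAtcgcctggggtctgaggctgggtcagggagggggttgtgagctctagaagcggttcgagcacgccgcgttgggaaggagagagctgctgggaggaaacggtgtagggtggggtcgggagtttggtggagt

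The members with and without an E2F word overlapped in their change. Of the 15 with a word 14 rose between the knockout groups, with a median log2 difference of 0.80 (range 0.22 to 1.83). Of the 22 without one 18 rose, with a median of 0.92 (range 0.18 to 3.05). A match of letters is a description of this window and shows no binding.

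Polymerases, clamp, clamp loader and Okazaki fragment genes had the lowest median of the 6 roles: 5 of 10 rose and 0 fell between the knockout groups, and that median was a log2 difference of 0.32. Pole, the catalytic subunit of the leading-strand polymerase, stood at 1.93, 1.72 and 2.76 in untreated knockout, 3.85, 6.00 and 5.09 in treated wild-type and 4.66, 8.86 and 5.11 in treated knockout hearts. All treated libraries exceeded the untreated ones (2.90-fold between the knockout groups; log2 difference 1.169 ± 0.22, adjusted p = 0.00073 by limma). Lig1, the ligase that joins Okazaki fragments, went from 2.90, 1.60 and 2.76 to 4.15, 10.7 and 7.06 (log2 difference 1.22 ± 0.26, adjusted p = 0.0017 by limma), and treated wild-type hearts read 5.04, 7.38 and 5.38. Prim1, the catalytic subunit of primase, went from 1.69, 1.11 and 1.52 to 2.38, 5.21 and 3.16 (0.87 ± 0.21, adjusted p = 0.0051 by limma), with 2.66, 3.46 and 3.56 in treated wild-type hearts. For these genes too the untreated libraries were the lowest, and replicate 2 was the highest of the treated knockout libraries. The polymerase subunits Pola1 and Pold1 rose by log2 differences of 0.52 and 0.34. The call of Pold1 was lost without untreated replicate 2 or 3 or treated knockout replicate 2 or 3, and that of Pola1 with DESeq2.

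The clamp itself was the member with the most transcript per kilobase, and its groups lay close together. Pcna (ENSMUSG00000027342, chr2:132249162-132253314 on GRCm38) read 25.5, 28.3 and 25.7 in untreated knockout hearts, 31.3, 36.5 and 30.5 in treated wild-type and 27.6, 38.4 and 32.3 in treated knockout hearts. Treated knockout replicate 1 lay inside the untreated range, and the difference missed the threshold (1.24-fold; log2 difference 0.28 ± 0.11, adjusted p = 0.056 by limma). It passed in 5 of the alternative settings, among them scaling by transcripts outside the mitochondrial genome (adjusted p = 0.014), the minimum value (0.045), and leaving out treated knockout replicate 1 (0.013) or treated wild-type replicate 3 (0.047). The clamp loader subunits did not pass either. Rfc4 read 6.16, 3.94 and 3.45 in untreated and 5.49, 6.46 and 5.19 in treated knockout hearts (0.31 ± 0.18, adjusted p = 0.17 by limma; passed without untreated replicate 1). Rfc5 read 4.83, 3.44 and 4.84, and 4.97, 5.21 and 4.95 (0.18 ± 0.20, adjusted p = 0.48 by limma). The range of treated wild-type hearts, 4.95 to 6.23 for Rfc4 and 4.31 to 7.96 for Rfc5, met or crossed that of the untreated hearts. Rfc3 differed by 0.22 ± 0.17 between the knockout groups. Fen1, the flap nuclease of Okazaki fragments, read 3.62, 4.92 and 3.45 in untreated, 4.22, 5.76 and 5.19 in treated wild-type and 4.04, 6.57 and 3.97 in treated knockout hearts, which overlapped (0.21 ± 0.19, adjusted p = 0.39 by limma).

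All 4 genes of deoxynucleotide supply rose between the knockout groups, with a median log2 difference of 0.90. Tk1, thymidine kinase of the salvage pathway, stood at 3.87, 2.71 and 2.90 in untreated knockout, 5.14, 7.38 and 5.77 in treated wild-type and 7.36, 9.90 and 7.54 in treated knockout hearts. Untreated libraries were lowest and the treated groups met only at 7.36 and 7.38 (2.62-fold between the knockout groups; log2 difference 1.16 ± 0.17, adjusted p = 1e-04 by limma). Rrm2, the S-phase subunit of ribonucleotide reductase, stood at 2.05, 1.60 and 3.32, at 6.24, 8.53 and 7.50 and at 4.66, 12.0 and 5.52 in the same order (3.18-fold; 1.27 ± 0.27, adjusted p = 0.0018 by limma). Replicate 2 of the treated knockout hearts stood apart from the other 2 libraries, and all 3 exceeded the untreated hearts. Rrm1, the large subunit of the same enzyme, and Tyms, thymidylate synthase, rose by 0.43 and 0.65. The call of Tyms was lost without treated knockout replicate 2 or untreated replicate 1 or 2.

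All 7 genes of chromatin assembly, DNA methylation and topology rose between the knockout groups, with a median log2 difference of 1.14. The summed level of the role was 30.3, 33.6 and 33.2 in untreated knockout, 82.5, 93.3 and 92.5 in treated wild-type and 75.6, 127 and 92.6 in treated knockout hearts. Top2a, the topoisomerase that untangles replicated DNA and acts on into mitosis (ENSMUSG00000020914, chr11:98992943-99024189 on GRCm38), had the greatest log2 difference of the 43 members. It stood at 2.66, 1.97 and 3.73 in untreated knockout, 25.2, 34.4 and 31.2 in treated wild-type and 21.1, 43.3 and 28.7 in treated knockout hearts. The ranges were far apart: the mean was 11.1-fold higher in treated than in untreated knockout hearts (log2 difference 3.05 ± 0.22, adjusted p = 6.3e-07 by limma). As a ratio of means Mcm10, with 2, 0 and 2 reads in the untreated libraries, rose further, 13.9-fold. Atad2, a chromatin ATPase with a bromodomain, stood at 4.35, 3.81 and 5.11 in untreated, 12.7, 12.5 and 12.3 in treated wild-type and 10.7, 15.4 and 14.1 in treated knockout hearts (3.03-fold; 1.40 ± 0.14, adjusted p = 5.8e-06 by limma). Uhrf1, which brings the methyltransferase Dnmt1 to newly copied DNA, and Dnmt1 rose by log2 differences of 1.83 and 0.76. The histone chaperone subunits Chaf1a and Chaf1b rose by 1.14 and 1.07, and Ezh2, the histone methyltransferase of Polycomb, by 0.80.

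Top2a had no E2F word in its RefSeq promoter. It had 6 CCAAT boxes, the sequence CCAAT on either strand, and 5 of these lie in the 200 bases before the start (chr11:99024190-99024389, minus strand). They begin at -189, -149, -98, -78 and -58 and are in capitals in the line below. It also had 4 matches to TTTGAA or TTCGAA, the letters of the CHR element of cell-cycle genes, searched on both strands. A CCAAT box was present in 22 of the 37 members with a promoter (59.5%) and in 43.03% of the measured genes with one, and a CHR match in 10 (27.0%) and in 16.15%. Of all 27025 genes with a promoter the shares were 41.06% and 21.66%, and of all 32851 single promoters 37.4% and 19.2%.
Top2a: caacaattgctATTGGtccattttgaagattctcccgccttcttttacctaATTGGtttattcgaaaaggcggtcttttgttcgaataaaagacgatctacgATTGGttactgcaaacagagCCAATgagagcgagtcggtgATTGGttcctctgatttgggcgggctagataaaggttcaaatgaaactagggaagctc

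All 4 genes of the fork checkpoint and of recombination repair rose between the knockout groups, with a median log2 difference of 1.16, from very low levels. Rad51ap1, a factor of recombination repair, stood at 0.725, 0.738 and 0.414 in untreated knockout, 2.38, 4.84 and 3.65 in treated wild-type and 2.07, 3.86 and 4.22 in treated knockout hearts (5.41-fold between the knockout groups; 1.40 ± 0.24, adjusted p = 0.00038 by limma). Brca1, a ubiquitin ligase of homologous recombination, stood at 0.121, 0.369 and 0.829, at 2.02, 2.998 and 2.595 and at 1.55, 3.54 and 3.24 in the same order (6.33-fold; 1.38 ± 0.25, adjusted p = 0.00058 by limma). In each case all untreated libraries lay under a normalized count of 1 and all treated ones above it. Chek1, the checkpoint kinase of stalled forks, rose by a log2 difference of 0.94. Brca2, another gene of recombination repair, rose by 0.75, a call that was lost without treated knockout replicate 2 or untreated replicate 2.

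Of the 5 E2F factors and E cyclins 4 rose between the knockout groups, with a median log2 difference of 0.86. E2f1, an activator of S-phase genes, stood at 0.604, 1.11 and 1.24 in untreated knockout, 3.21, 3.11 and 3.84 in treated wild-type and 3.42, 5.42 and 3.49 in treated knockout hearts (4.17-fold; 1.36 ± 0.20, adjusted p = 1e-04 by limma). E2f8, a repressor of the same family, stood at 0.483, 1.23 and 0.967, at 3.21, 3.46 and 3.08 and at 1.87, 3.86 and 2.03 in the same order (2.89-fold; 0.90 ± 0.22, adjusted p = 0.0052 by limma). For both genes the untreated hearts were lowest without overlap. E2f2, another activator, and Ccne1, a cyclin E that drives entry into S phase, rose by 0.86 and 0.58. These calls were lost without treated knockout replicate 2 or untreated replicate 2, and also without untreated replicate 1 for E2f2 and untreated replicate 3 or treated knockout replicate 3 for Ccne1. Ccne2, the other cyclin E, differed by 0.06 ± 0.19 (adjusted p = 0.82 by limma).

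Of the 34 members that rose, 27 passed whichever 1 of the 9 libraries was left out. The other 7 are Cdt1, Cdc45, Pold1, Tyms, Brca2, E2f2 and Ccne1, of which Cdt1, Cdc45, Pold1 and Ccne1 also lost the call with DESeq2 and with quantile scaling. The 9 that did not pass are Mcm4, Gins1, Gins2, Pcna, Rfc3, Rfc4, Rfc5, Fen1 and Ccne2.

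**Figure D3:**
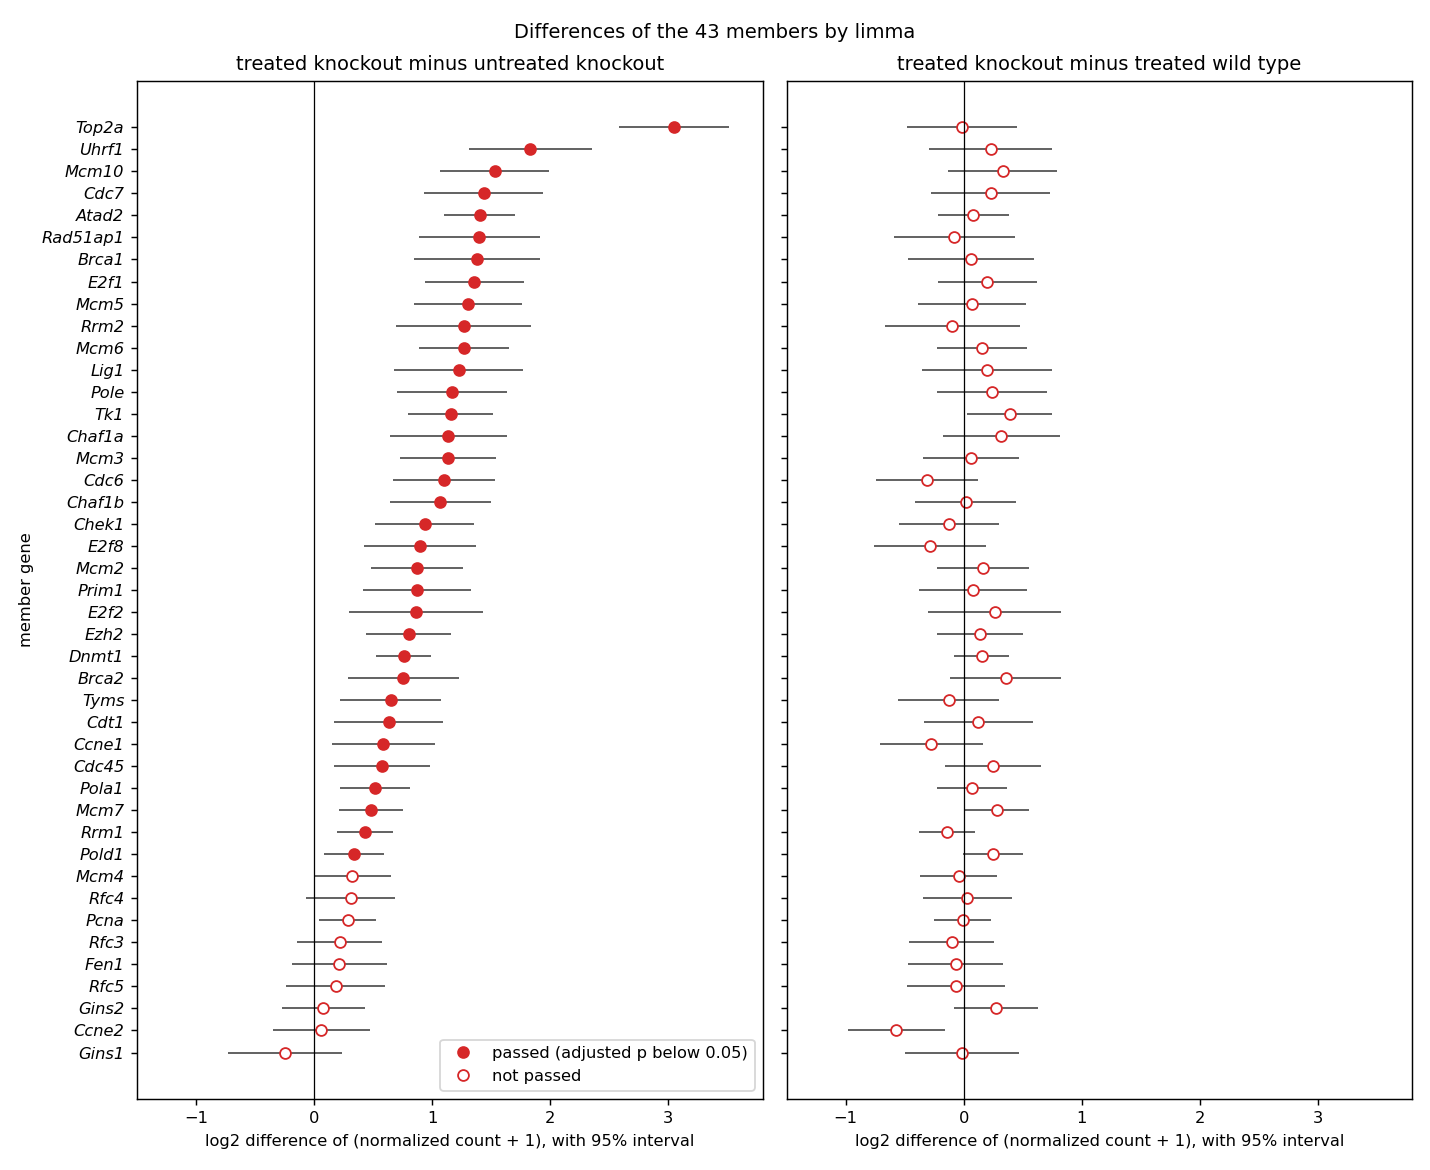
Log2 difference of (normalized count + 1) for each of the 43 members (horizontal axis), with its 95% interval from limma; the left panel is treated minus untreated knockout hearts, the right panel treated knockout minus treated wild-type hearts, and filled points passed the adjusted p threshold of 0.05. On the left 34 points are filled, led by Top2a at 3.05; on the right 0 are, and every interval lies between -0.98 and 0.83.

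The comparison of the treated groups asked whether hearts labelled OMA1 KO differed from wild-type hearts under isoproterenol. Of the 43 members 0 passed in limma, where 17.1% of all genes passed, 7.78% as higher in knockout hearts and 9.29% as lower. At an unadjusted p under 0.05 in limma there were 3 of the 43, beside 4324 of all 13539 genes. On the recovered reads edgeR also called 0 of the 43, and DESeq2 called 0 of the 23 for which it gave an adjusted p. The median log2 difference was 0.07 (range -0.57 to 0.39), beside 0.02 over all genes, and the ratio of group means ran from 0.613 to 1.40. That these differences missed the threshold does not show that the groups were equal. The 95% intervals give the bounds: on the log2(normalized count + 1) scale they lay within 2-fold either way for 43 of 43 members, with a median width of 0.85. Since 1 is added, the intervals of the lowest members would be wider as plain ratios. Without treated knockout replicate 2 the median was -0.08, so the sign of the median rested on that library.

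Top2a had a log2 difference of -0.01 ± 0.22 between the treated groups (95% interval -0.48 to 0.45), and Pcna one of -0.01 ± 0.11 (-0.25 to 0.23). Only 3 members had treated groups that did not overlap. Mcm7 was higher in knockout hearts, at 11.9, 16.4 and 12.4 against 11.2, 11.1 and 10.5 in wild-type hearts (0.28 ± 0.13, adjusted p = 0.15 by limma). Cdc6 and Ccne2 were lower in every knockout library than in every wild-type one, although the values of Cdc6 met closely, at 1.45, 2.61 and 2.84 against 2.84, 3.34 and 2.88 (-0.31 ± 0.20, adjusted p = 0.31 by limma). Non-overlap of this kind was found for 18.1% of all genes in the higher and 17.7% in the lower direction, so that 1 and 2 of 43 were below the background. Tk1, the member with the highest log2 difference, had 0.39 ± 0.17 (adjusted p = 0.13 by limma).

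Ccne2 was singled out after its values were seen, as the member nearest to the threshold. It read 3.50, 3.44 and 1.93 in untreated knockout hearts, 4.58, 5.65 and 4.90 in treated wild-type and 2.38, 3.65 and 3.24 in treated knockout hearts. The wild-type libraries stood highest, and the ranges of the untreated and treated knockout hearts overlapped. Between the treated groups the log2 difference was -0.57 ± 0.19 (95% interval -0.98 to -0.16; adjusted p = 0.055 by limma). The adjusted p ran from 0.030 to 0.18 over the alternatives and passed with a pseudocount of 10, with quantile scaling and without untreated knockout replicate 3.

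Treated wild-type and untreated knockout hearts differ in genotype and treatment at once, and this comparison shares the untreated libraries with that of the knockout groups. Here 29 members rose and 0 fell, where 26.6% of all genes passed, 13.7% as higher and 12.9% as lower. Of these members 22 passed whichever 1 of the 9 libraries was left out. The median log2 difference was 0.78 (range -0.23 to 3.06), and 34 members did not overlap in the higher direction, which held for 21.1% of all genes. Top2a differed by 3.06 ± 0.22, Atad2 by 1.32 ± 0.14, Uhrf1 by 1.60 ± 0.24 and Cdc6 by 1.41 ± 0.20. By role 7 of 13 licensing genes, 4 of 10 polymerase genes, 4 of 4 of deoxynucleotide supply, 7 of 7 of chromatin, 3 of 4 of checkpoint and repair and 4 of 5 E2F and cyclin E genes rose. Mcm7, Cdt1, Cdc45, Pold1, Brca2 and E2f2 passed between the knockout groups and not here, with log2 differences of 0.20, 0.51, 0.33, 0.09, 0.40 and 0.60. Ccne2 passed here (0.63 ± 0.19, adjusted p = 0.025 by limma) and not between the knockout groups, but not here without treated wild-type replicate 2 or untreated replicate 3. These gaps between the comparisons are the differences between the treated groups given above, of which 0 passed.

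Beyond the members, 117 further genes of replication and its control were listed in 7 groups. Orc1, Dscc1, Cdkn2a and Cdkn2b are not among the genes listed in the table. Of the 113 found, 47 rose and 10 fell between the knockout groups, with a median log2 difference of 0.21, where 21% of all genes rose and 20.3% fell. Among the 18 of origin recognition and firing 8 rose and 1 fell: Dbf4, the activator of Cdc7, and Donson, a helicase loading factor, rose by 1.04 and 0.98, and Mcm8 fell by 0.56. The call of Mcm8 was lost without untreated replicate 1 or 2 or treated knockout replicate 1 or 2. Among 18 other polymerase, loader and DNA-binding subunits 5 rose and 2 fell, with Chtf18 of an alternative clamp loader at 1.03, Pold3 of the lagging-strand polymerase at 0.63, Rpa2 of the complex that coats unwound DNA at -0.58 and Rfc1, the large clamp loader subunit, at -0.37. Among 11 of deoxynucleotide metabolism 1 rose, Dck at 0.46, and 2 fell, Rrm2b at -0.72 and Mthfd1 at -0.37, both shares below those of all genes. The call of Dck was lost when any 1 of the 3 untreated libraries was left out, without treated knockout replicate 2 or 3, and with edgeR and DESeq2. Rrm2b is the reductase subunit that cells use outside S phase.

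Of 15 other genes of replication-coupled chromatin 8 rose and 0 fell, with the remodeller Hells at 1.25 ± 0.16 and Cdca7, which activates it, at 0.97 ± 0.21. Of 19 other checkpoint and fork repair genes 12 rose and 0 fell, with Clspn, the adaptor through which Chek1 is activated, at 1.59 ± 0.22 and Timeless, a fork protection factor, at 0.94 ± 0.11. Of 27 regulators of the step from G1 to S 11 rose and 5 fell. Ccna2, the cyclin A of S phase, stood at 1.09, 1.85 and 1.38 in untreated knockout, 10.3, 15.5 and 17.2 in treated wild-type and 11.3, 18.1 and 15.6 in treated knockout hearts. Like Top2a it showed untreated and treated libraries far apart (10.4-fold; log2 difference 2.70 ± 0.20, adjusted p = 7.2e-07 by limma). Ccnd1, a cyclin D, rose by 1.67 ± 0.12, while Rbl2, a pocket protein of resting cells, and Tfdp2, a partner of E2F factors, fell by 0.52 and 0.55. Among 5 inhibitors of cyclin-dependent kinases 2 rose, Cdkn1a by 1.35 and Cdkn2c by 0.48, and 3 did not pass, where 21% of all genes rose.

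Between the treated groups 3 of these 113 genes were higher and 6 lower in knockout hearts, which as shares are below the 7.78% and 9.29% of all genes. The higher ones were Cdkn1c, a kinase inhibitor (0.68 ± 0.14, adjusted p = 0.0067 by limma), Timeless (0.43 ± 0.11, adjusted p = 0.021) and Dtymk, thymidylate kinase (0.41 ± 0.10, adjusted p = 0.017). The lower ones included Rbl2 (-0.52 ± 0.08, adjusted p = 0.0013), Ccnd2, a cyclin D (-0.47 ± 0.10, adjusted p = 0.0067), and Rrm2b (-0.41, adjusted p = 0.031). Without treated knockout replicate 2 the calls of Timeless, Dtymk and Rrm2b were lost; those of Dtymk and Rrm2b were also lost after the length and GC correction, that of Timeless without treated wild-type replicate 2 and that of Rrm2b without treated wild-type replicate 1 or 2.

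Markers of some other cell types of the heart rose in the same comparisons as the members. All 10 endothelial markers rose between the knockout groups (median log2 difference 0.84), as did 8 of 9 fibroblast markers (0.82), where 21% of all genes rose. Of 9 macrophage markers 3 rose and 6 did not pass (median 0.37). The summed endothelial level was 1097 to 1214 in untreated knockout, 1551 to 1701 in treated wild-type and 1988 to 2397 in treated knockout hearts. The fibroblast sum was 1022 to 1109, 1701 to 3719 and 1878 to 2003 in the same order, with treated wild-type replicate 3 the highest. Endothelial markers also differed between the treated groups, where 7 of 10 were higher in knockout hearts, beside 7.78% of all genes, and 0 of the 43 replication genes passed. The macrophage sum was 273 to 383, 313 to 459 and 375 to 426. Smooth muscle and pericyte markers rose for 6 and fell for 1 of 9, and their sum went from between 984 and 1001 to between 1236 and 1491 in treated knockout hearts. Of the 3 neutrophil and 5 erythroid markers found, 0 passed between the knockout groups.

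In other marker lists more genes fell than rose between the knockout groups, where 20.3% of all genes fell. Of the 8 cardiomyocyte markers 2 fell, 0 rose and 6 did not pass, and 3 had a log2 difference above 0. Between treated wild-type and untreated knockout hearts 1 of the 8 rose and 1 fell. Every treated library had a lower cardiomyocyte sum than every untreated one. Of the lymphocyte markers 4 of 9 were in the table, 3 of these fell between the knockout groups, and their sum was 5.92 to 14.0 in untreated and 2.68 to 3.01 in treated knockout hearts. The atrial markers fell for 5 of 5 genes in both comparisons with untreated hearts. The atrial sum was 1129 to 2526 in untreated knockout, 53.5, 88.0 and 844 in treated wild-type and 87.8 to 119 in treated knockout libraries. The part of these cell types in the differences of the replication genes was not tested.

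**Figure D4:**
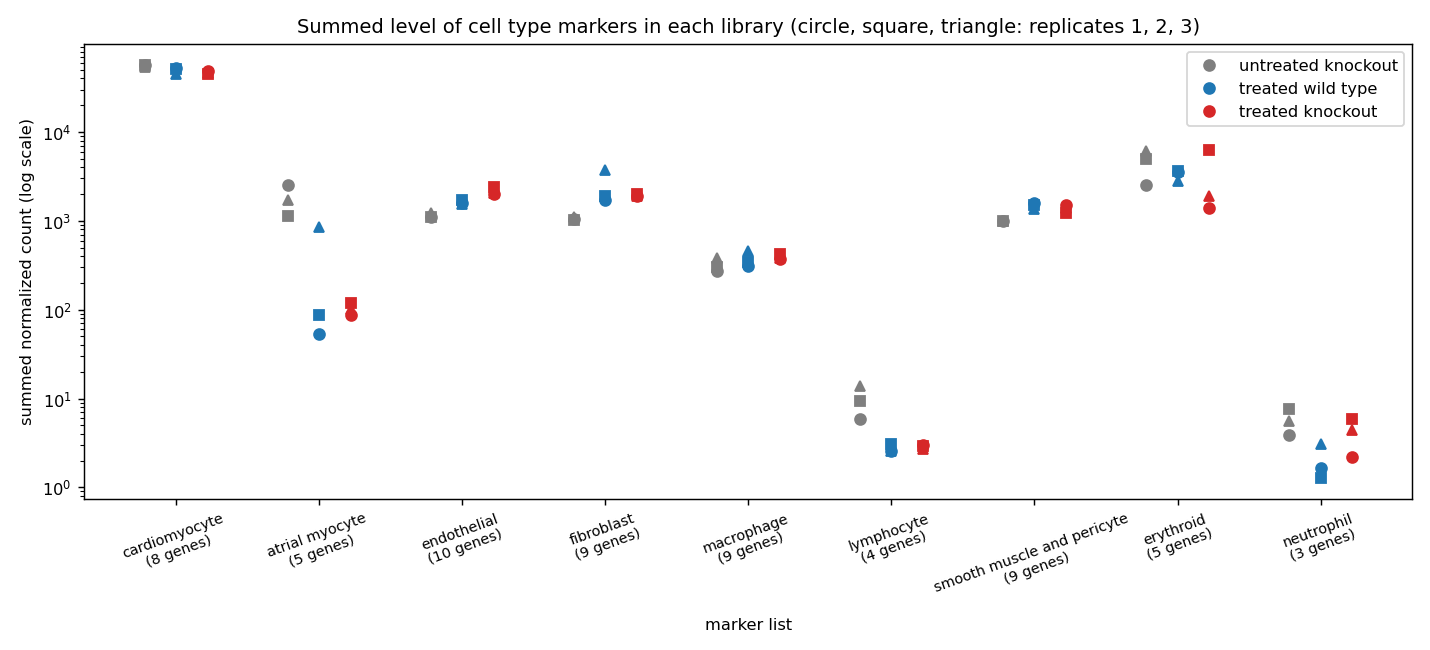
Summed normalized count (vertical axis, log scale) of the markers of 9 cell types of the heart in each library, with the number of genes found; grey is untreated knockout, blue treated wild-type and red treated knockout hearts, and circles, squares and triangles are replicates 1, 2 and 3. Endothelial sums step up from the untreated range of 1097 to 1214 to 1988 to 2397 in treated knockout hearts, and atrial sums step down from 1129 to 2526 to between 87.8 and 119.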

How the data were processed

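Heart RNA of 9 samples was sequenced with TruSeq libraries, per the labels' protocols. The submitters' processing notes name cutadapt, RSEM 1.17, limma and the build GRCm38. The sources used here name no aligner, annotation or gene filter. Values in the deposited table are a signal: expected counts scaled by the authors, 1 step per read and library, and 100% of the values were whole reads within 0.02 reads.

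Values were taken as log2(value + 1) and fitted in R 4.3.3 with limma 3.58.1, with 1 mean per group, all 9 samples, a mean-variance trend and Benjamini-Hochberg adjustment over 13539 genes (two-sided, threshold 0.05). No minimum was applied, because a value of 10 in 3 libraries keeps 11 members, 6 of them with every untreated library below 10. Alternatives were the pseudocount, minimum values, scalings, the form of the fit, edgeR 4.0.16 and DESeq2 1.42.0 on recovered reads, a correction for transcript length and GC content, and each library left out; the joint removal of treated knockout replicate 2 and treated wild-type replicate 3 was chosen after seeing the data. Positions and lengths came from GENCODE M21, promoters from RefSeq. The fit was also run on simulated counts in which every gene had the same dispersion and few genes changed. That run checked the code and does not bear on the calls made here.

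The members and lists were chosen with earlier results of these data known. Values per sample are given for the 2 members of each role with the smallest p between the knockout groups (3 in the 2 largest roles), Top2a, Pcna, and up to 6 members that did not pass there, by mean. Others named with values, such as Ccne2, Cdc6 and Mcm7, were chosen after their values were seen. From each further list up to 2 genes each way are named.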

Additional observations from a re-analysis of the deposited data

How the results depend on the processing

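Among the 43 members and the 113 further genes, no called result reversed its direction under the alternatives that gave an adjusted p. The markers and all other genes were not checked for this. Between the knockout groups 27 to 36 members were called with a library left out (27 without treated knockout replicate 2 or untreated replicate 2), 34 with edgeR, 29 with DESeq2 and 28 without treated knockout replicate 2 and treated wild-type replicate 3, a choice made after seeing the data. The minimum value of 10 left 11 members to test, of which 10 were called there and 7 between treated wild-type and untreated knockout hearts, where 26 to 30 were called with a library left out. With scaling outside the mitochondrial genome the median of all genes moved to 0.11 and that of the members to 0.95. The members' median was 0.26 with a pseudocount of 10 and 1.21 with 0.1. Between the treated groups 0 to 1 members were called with a library left out, and 1 with a pseudocount of 10 or quantile scaling, which was Ccne2 each time. Of all genes, 2312 were called there, against 1365 without a trend, 1404 with only the 2 groups, 1469 after the length and GC correction, 820 at a threshold of 0.01 and 1156 to 2291 with a library left out (1156 without treated knockout replicate 2, 1470 and 1474 without treated wild-type replicates 1 and 2). The threshold of 0.01 left 3721 genes between the knockout groups and 1937 between treated wild-type and untreated knockout hearts. In each case the cause was not tested. DESeq2 gave an adjusted p for 23 of the 43 members between the treated groups.

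No pairing of samples by replicate number was seen, but these correlations cannot exclude it and the labels do not settle it. Deviations of same-numbered samples correlated at -0.15 to 0.19 (9 pairs) and those of other numbers at -0.25 to 0.26 (18 pairs). Not every sample correlated best with its own number. With the replicate number as a block 35, 0 and 30 members were called between the knockout groups, between the treated groups, and between treated wild-type and untreated knockout hearts, against 34, 0 and 29. Depth limits the lowest members, since 8 had fewer than 10 reads in every untreated library; intervals there cover these 3 libraries only.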
